A study of Mus musculus with 2 samples.

Results

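The transcripts described here encode the receptors for insulin and insulin-like growth factor 1, the adaptors that dock on them, and the proteins that bind insulin-like growth factors (IGFs) outside the cell. The 10 genes were chosen by symbol from a deposited expression table, each gene ID once, out of 42392 gene IDs. They are the receptor genes Igf1r and Insr, the adaptor genes Irs1 and Irs2, and Igfbp2, Igfbp3, Igfbp4, Igfbp5, Igfbp6 and Igfbp7. All 10 were found, each on 1 gene ID. The rule that picks them uses no measured value, but the list was drawn up with earlier results of these data known.

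The values come from 1 library of hair follicle stem cells in anagen II-III, the early growth phase of the hair cycle. The cells were sorted from the skin of female mice that carried the K15-CrePGR transgene, a Cre fused to the progesterone receptor under a keratin 15 promoter, and the Shh+/- genotype. RU486, which switches on a Cre of this kind, had been given for 8 days, and the title calls the sample a control. The series also lists a telogen sample with the same sex, genotype and treatment. It was not analysed here, so no comparison of stages was made. Age and the number of animals in the library are not given in the labels. With 1 library, no value has an error, and no test was possible. Levels are in TPM, a transcript abundance scaled for gene length and to the library's total, so that genes can be set side by side. The read depth behind them is unknown.

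Insulin and the IGFs bind receptor tyrosine kinases that phosphorylate the adaptors IRS1 and IRS2. These recruit phosphoinositide 3-kinase and lead to AKT, which holds FOXO transcription factors out of the nucleus, while a second branch runs through RAS to the MAP kinases. IGF binding proteins hold IGFs in the extracellular space, prolong their life and limit or direct their access to the receptor, until proteases release them. In skin, dermal cells are a known source of IGF1, and IGF1 supports the growth of cultured human hair follicles.

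The upstream sequences of the 3 most abundant binding proteins and of both adaptors are printed. They show genes from the upper and the lower part of the range of levels. Insr also lay below Irs2 but had no promoter entry. Each run is the 250 bases before the start site of the RefSeq promoter table, build GRCm38.p6, 5′ to 3′ on the gene's strand. Capitals mark matches on either strand to the TATA box letters TATAAA and their variant TATATA, to the Sp1 site letters GGGCGG and to the E-box letters CACGTG. The motif GTAAACA (FOXO site) was searched too. These motifs were chosen after the sequences were seen.
Igfbp4, chr11:99040994-99041243, plus strand: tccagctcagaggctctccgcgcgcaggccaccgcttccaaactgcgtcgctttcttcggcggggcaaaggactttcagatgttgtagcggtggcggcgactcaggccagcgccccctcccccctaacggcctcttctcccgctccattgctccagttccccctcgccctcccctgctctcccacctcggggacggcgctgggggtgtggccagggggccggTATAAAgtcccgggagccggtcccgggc
Igfbp7, chr5:77408046-77408295, minus strand: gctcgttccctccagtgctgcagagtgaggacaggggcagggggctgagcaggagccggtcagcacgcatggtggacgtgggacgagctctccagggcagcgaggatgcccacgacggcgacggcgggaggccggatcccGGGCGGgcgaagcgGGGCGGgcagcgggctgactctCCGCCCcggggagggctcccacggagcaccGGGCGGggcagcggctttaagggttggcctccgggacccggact
Igfbp3, chr11:7213924-7214173, minus strand: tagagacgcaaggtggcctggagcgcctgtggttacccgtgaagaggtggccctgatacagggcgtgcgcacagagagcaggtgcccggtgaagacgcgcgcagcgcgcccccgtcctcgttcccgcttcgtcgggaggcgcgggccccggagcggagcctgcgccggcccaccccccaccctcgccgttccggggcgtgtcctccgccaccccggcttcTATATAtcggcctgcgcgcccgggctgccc
Irs2, chr8:11008930-11009179, minus strand: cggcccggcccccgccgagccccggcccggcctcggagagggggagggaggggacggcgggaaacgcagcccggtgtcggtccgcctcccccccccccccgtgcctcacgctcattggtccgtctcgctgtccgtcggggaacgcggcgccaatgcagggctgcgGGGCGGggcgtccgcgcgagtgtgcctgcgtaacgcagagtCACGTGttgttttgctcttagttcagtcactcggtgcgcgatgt
Irs1, chr1:82291440-82291689, minus strand: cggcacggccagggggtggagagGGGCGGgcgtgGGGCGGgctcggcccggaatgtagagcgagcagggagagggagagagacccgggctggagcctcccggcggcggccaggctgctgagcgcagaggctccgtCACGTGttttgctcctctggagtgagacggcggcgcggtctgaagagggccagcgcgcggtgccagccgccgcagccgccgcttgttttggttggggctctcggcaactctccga

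The table held promoters for 9 of the 10 members, Igfbp2 with 2 of them. Insr had no entry. The start sites used for Igfbp3 and Igfbp4, and that of the second Igfbp2 promoter, lie inside the annotated spans of these genes. In Igfbp4 the letters TATAAA stood 28 to 23 bases before the start, and in Igfbp3 the letters TATATA stood 30 to 25 bases before it. Igfbp6 held TATAAA on the opposite strand, 148 to 143 bases before its start. TATAAA was thus in 2 of the 9 members with a window and TATATA in 1. The Igfbp7 window held neither run and had 4 matches to GGGCGG. In all, GGGCGG was in 5 of the 9, which were Igf1r, Irs1, Irs2, Igfbp2 and Igfbp7. Of all 32851 promoter windows of the same length, 12.4% held TATAAA, 5.25% TATATA and 32.7% GGGCGG on either strand. Irs1, Irs2 and 1 of the promoters of Igfbp2 held CACGTG, which 6.02% of all windows held. GTAAACA was in none of the members' windows and in 3.17% of all windows. A match of letters shows no binding.

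Igfbp6 had the lowest share of G and C among the members' windows. Its window was 49.6% G or C, which was above 39.5% of all windows, and it held 7 CpG dinucleotides. The Igf1r window was 77.6% G or C, above 97.6% of all windows, with 42 CpG dinucleotides. Irs1 and Irs2 had 72.4% and 72.8% G or C, Igfbp3 73.2%, Igfbp7 74.0% and Igfbp4 69.2%, against a median of 52.4% over all windows. Igfbp5 had 58.8%, and the windows of Igfbp2 had 67.2% and 56.4%. Windows rich in G and C thus stood before both the highest member, Igfbp4, and the lowest, Irs1.

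All 10 members reached 1 TPM, as did 56.0% of the 20810 nuclear protein-coding genes of the table. The members fell on both sides of the median of the 11656 protein-coding genes at 1 TPM or more, which was 12.5 TPM. Above it lay 5 of the binding protein genes. Igfbp2, both receptor genes and both adaptor genes lay below it. At 5 TPM or more stood 7 of the 10, against 42.4% of protein-coding genes.

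**Figure D1:**
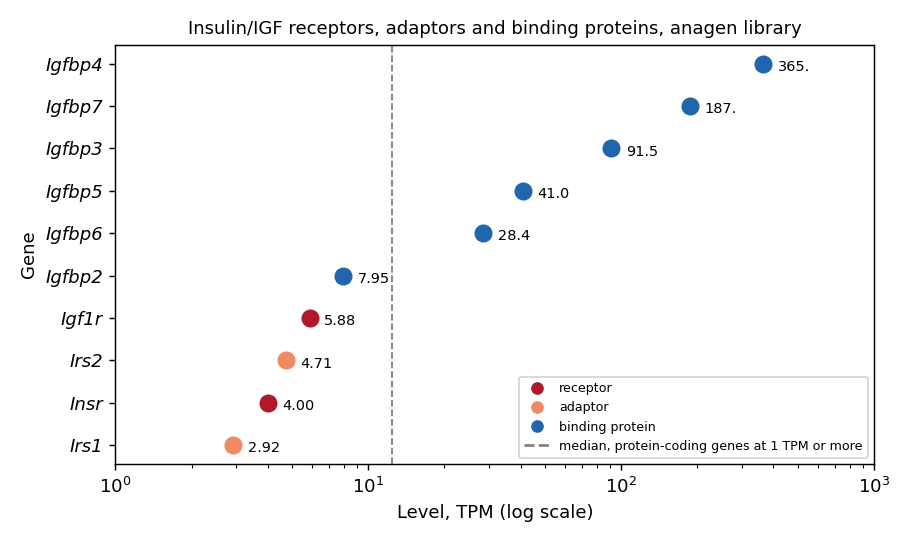
Level of each of the 10 members in the anagen library, in TPM on a log axis. Points are single values of 1 library, coloured by role, and the dashed line is the median of protein-coding genes at 1 TPM or more, 12.5 TPM. The binding protein genes run from 7.95 to 365 TPM, all above the receptor and adaptor genes, which run from 2.92 to 5.88 TPM.

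Igf1r, the receptor for IGF1 and IGF2, stood at 5.88 TPM (ENSMUSG00000005533, chromosome 7, 67952257 to 68233668). This level was above 27.8% of the protein-coding genes at 1 TPM or more. Insr, the insulin receptor gene, stood at 3.999 TPM (ENSMUSG00000005534, chromosome 8, 3150922 to 3279649), above 19.2% of them. Igf1r was 1.47-fold above Insr. The 2 receptors can form hybrids that bind IGF1, and a TPM value does not show how the proteins pair.

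Irs2, the adaptor that serves the insulin receptor in liver and beta cells, stood at 4.71 TPM (ENSMUSG00000038894, chromosome 8, 10984681 to 11008929), above 22.9% of protein-coding genes at 1 TPM or more. Irs1, its relative, was the lowest member at 2.92 TPM (ENSMUSG00000055980, chromosome 1, 82233105 to 82291439), above 14.0% of them. Irs2 was 1.61-fold above Irs1. The receptor and adaptor genes lay close together, within a 2.01-fold range from Igf1r down to Irs1. Their order carries no weight, since 1 library gives no spread to set these steps against.

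Igfbp4, which encodes a binding protein known as an inhibitor of IGF action, was the highest member at 365 TPM (ENSMUSG00000017493, chromosome 11, 99040005 to 99052655). It ranked 164th among nuclear protein-coding genes, above 98.6% of those at 1 TPM or more, and was 29.3-fold above their median. Igfbp7 stood at 187 TPM and ranked 361st (ENSMUSG00000036256, chromosome 5, 77349240 to 77408045). Its protein binds IGFs only weakly and is also known from the basement membranes of vessels. Igfbp3, which encodes the main IGF carrier of the blood, stood at 91.5 TPM and ranked 819th (ENSMUSG00000020427, chromosome 11, 7206086 to 7215498). Igfbp4 was 1.95-fold above Igfbp7, and Igfbp7 was 2.04-fold above Igfbp3.

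Igfbp5, whose protein binds extracellular matrix, stood at 41.0 TPM (ENSMUSG00000026185, chromosome 1, 72858065 to 72874865), above 82.1% of protein-coding genes at 1 TPM or more. Igfbp6, which encodes a binding protein with a preference for IGF2, stood at 28.4 TPM (ENSMUSG00000023046, chromosome 15, 102144186 to 102149512), above 73.8% of them. Igfbp2, whose protein also binds integrins, was the lowest of the 6 at 7.95 TPM (ENSMUSG00000039323, chromosome 1, 72824480 to 72852474), above 35.9% of them. Igfbp4 was 45.9-fold above Igfbp2. The widest step in the order of all 10 lay between Igfbp6 and Igfbp2, which differed 3.58-fold.

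**Figure D2:**
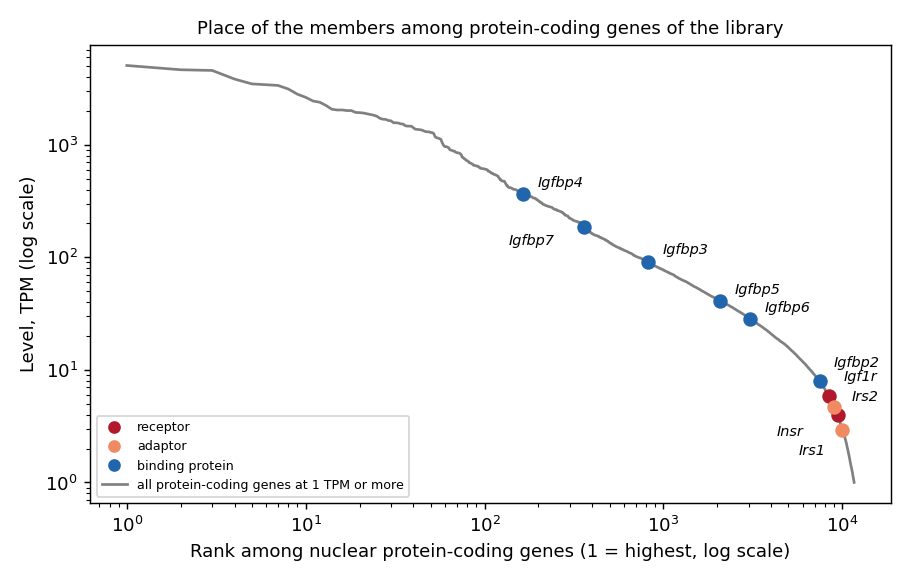
Level in TPM against rank among nuclear protein-coding genes of the anagen library, both on log axes. The grey line is every protein-coding gene at 1 TPM or more and points are the members, coloured by role. Igfbp4, Igfbp7 and Igfbp3 rank 164th, 361st and 819th, and the receptor and adaptor genes lie between rank 8411 (Igf1r) and rank 10019 (Irs1).

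The 6 binding protein genes together held 719.96 TPM. Of this sum Igfbp4 made up 50.6%, Igfbp7 25.9% and Igfbp3 12.7%, so that these 3 genes held 89.3% of it. Igfbp5 made up 5.69%, Igfbp6 3.95% and Igfbp2 1.10%. The sum of the 6 was 72.9-fold that of Igf1r and Insr, 9.88 TPM, and 94.3-fold that of Irs1 and Irs2, 7.63 TPM. These folds set 6 genes against 2, and the wider lists below held more. The 4 receptors of the family summed to 17.9 TPM and the 9 receptor adaptors to 102 TPM. For single genes, Igfbp4 was 62.0-fold and Igfbp7 31.7-fold above Igf1r, while Igfbp2 was 1.35-fold above it. RNA levels of secreted and membrane proteins do not give the ratio of the proteins.

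Neighbouring genes of the family differed in level. Igfbp2 and Igfbp5 lie end to end on chromosome 1, on opposite strands, with 5590 bases and no other annotated gene between them. Igfbp5 was 5.15-fold above Igfbp2. Igfbp1 and Igfbp3 form a like pair on chromosome 11, with 3539 bases and no annotated gene between them. Igfbp1, a binding protein gene best known from liver that is not among the 10, was listed at 0 TPM, while Igfbp3 stood at 91.5 TPM.

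Ligand genes were low or listed at 0 in these cells. Igf1 stood at 1.08 TPM and Igf2 at 0.911 TPM, and the insulin genes Ins1 and Ins2 were listed at 0. Igf1r was 5.45-fold above Igf1 and 6.45-fold above Igf2. Among the related receptors, Igf2r, which takes IGF2 to the lysosome, stood at 7.98 TPM, 1.36-fold above Igf1r, and the orphan receptor gene Insrr was listed at 0.

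Of 7 other adaptor genes of receptor signalling, 4 were above both Irs1 and Irs2 and 3 were below both. Their list of 9 had 6 genes at or above 1 TPM, against 56.0% of protein-coding genes, and a median level of 4.71 TPM. Shc1 and Grb2, which link receptors to RAS, stood at 38.4 and 24.1 TPM, and Sh2b1 at 19.2 TPM. Irs4 was listed at 0.

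Of the 7 listed genes that act on the binding proteins or partner them, 5 were at or above 1 TPM, against 56.0% of protein-coding genes. The median level of the 7 was 5.35 TPM. It was 2.43 TPM over all protein-coding genes and 12.5 TPM over those at 1 TPM or more. Htra1, a secreted protease that cleaves IGFBP5, stood at 19.0 TPM. Pappa, the protease that cleaves IGFBP4 when IGF is bound, stood at 6.50 TPM, against 365 TPM for Igfbp4. Igfals, whose product joins IGF and IGFBP3 in a ternary complex, stood at 6.40 TPM, and Igfbpl1 was listed at 0.

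Most genes of the signalling arms below the receptors reached 1 TPM, as did 56.0% of all nuclear protein-coding genes. The median level was 12.5 TPM over protein-coding genes at 1 TPM or more and 2.43 TPM over all of them. In the PI3K and AKT arm, 14 of 15 genes were at or above 1 TPM, and the median level of the 15 was 9.61 TPM. The kinase genes Akt1 and Akt2 stood at 91.4 and 44.3 TPM, the PI3K regulatory subunit gene Pik3r2 at 61.6 TPM, and Pik3cd, the leukocyte catalytic subunit, was lowest at 0.394 TPM. The RAS and MAPK arm had all of its 11 genes at or above 1 TPM, and their median level was 40.8 TPM. Hras, Mapk3 and Map2k2 led it at 251, 92.1 and 72.7 TPM, and the exchange factor gene Sos1 was lowest at 4.96 TPM. Among 12 negative regulators, 11 were at or above 1 TPM, and the median level of the 12 was 12.3 TPM. The phosphatase gene Ptpn1, which acts on the insulin receptor, stood at 49.7 TPM, Socs3 stood at 43.8 TPM, and Inpp5d was lowest at 0.583 TPM.

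Foxo1, Foxo3 and Foxo4, which encode FOXO factors that AKT inhibits, lay near the expressed-gene median of 12.5 TPM, and Foxo6 lay above it. Foxo6 stood at 22.9 TPM, Foxo4 at 14.6 TPM, Foxo1 at 13.9 TPM and Foxo3 at 12.3 TPM. The 10 listed FOXO target genes outside the family were all at or above 1 TPM, and their median level was 24.5 TPM. Txnip stood at 133 TPM, the catalase gene Cat at 51.1 TPM, the cell cycle inhibitor gene Cdkn1b at 49.1 TPM, and Bcl6 was lowest at 7.74 TPM. Insr and Irs2, which FOXO factors are known to activate in other tissues, were at 3.999 and 4.71 TPM. These levels do not measure FOXO activity. In insulin-regulated metabolism, 9 of 11 genes were at or above 1 TPM, and the median level of the 11 was 11.6 TPM. The lipid synthesis genes Srebf1 and Fasn stood at 52.6 and 41.2 TPM and the glucose transporter gene Slc2a1 at 32.1 TPM, while Pck1, an enzyme gene of glucose production, was listed at 0. Over all 93 genes of these lists, members included, 79 reached 1 TPM, against 56.0% of all protein-coding genes. The median of the 93 was 11.6 TPM, against 2.43 TPM over all protein-coding genes. Over the listed genes at 1 TPM or more the median was 15.6 TPM, against the expressed-gene median of 12.5 TPM.

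**Figure D3:**
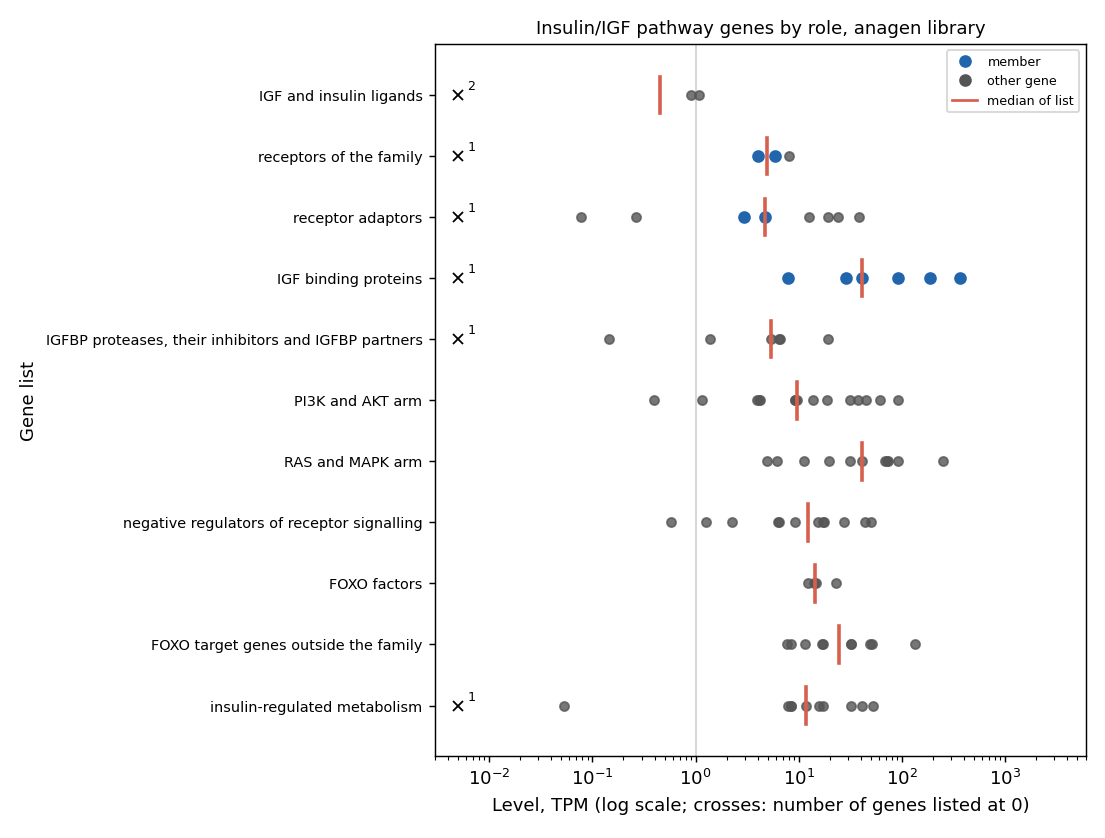
Level in TPM on a log axis of every gene in 11 lists of the insulin/IGF pathway, 1 point a gene, in the anagen library. Blue points are members, red bars are list medians, the grey line marks 1 TPM and crosses mark genes listed at 0 with their number. Ligands lie at or below 1.08 TPM, receptors at or below 7.98 TPM, and the binding proteins reach 365 TPM.

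The library carried the listed markers of bulge stem cells. Among these, Itga6 and Cd34 encode the surface proteins for which the cells were sorted. All 8 bulge markers reached 1 TPM, as did 56.0% of all nuclear protein-coding genes. They ran from Nfatc1 at 16.1 TPM to Krt15 at 3364 TPM. All 4 basal keratinocyte markers reached it too, from Trp63 at 162 TPM to Krt5 at 3833 TPM. So did all 4 suprabasal markers, from Krt1 at 33.0 TPM to Krtdap at 769 TPM. The median was 81.7 TPM over the bulge markers and 249 TPM over the suprabasal ones. Protein genes of the mitochondrial genome held 17.5% of all TPM and the 50 highest genes 41.6%, which lowers every other value alike. These shares overlap, since mt-Atp8, with 11.3% of all TPM, counts in both.

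Markers of other skin cells did not all reach 1 TPM. At or above it were 4 of 5 pericyte and smooth muscle markers and 4 of 6 endothelial ones. So were 5 of 6 melanocyte, 3 of 5 leukocyte and 3 of 4 Schwann cell markers, against 56.0% of nuclear protein-coding genes. All 7 fibroblast and dermal papilla markers reached 1 TPM, and they summed to 891 TPM. Col3a1 was highest at 287 TPM and Pdgfra, the gene of a surface protein used to exclude cells, was lowest at 1.44 TPM. The 5 pericyte and smooth muscle markers summed to 297 TPM, of which Acta2 gave 254 TPM, and Myh11 was lowest at 0.755 TPM. The 6 endothelial markers summed to 12.3 TPM, from Kdr at 0.436 TPM to Plvap at 4.65 TPM. Igfbp7, also known from vessels, stood at 187 TPM, and the part of vessel cells in this level was not tested. Melanocyte markers summed to 44.8 TPM, from Sox10 at 0.602 TPM to Mlana at 12.6 TPM. Leukocyte markers summed to 28.9 TPM, from Ptprc at 0.264 TPM to Cd74 at 13.2 TPM, and the 4 Schwann cell markers to 14.0 TPM. No marker of any list was at 0. Fibroblasts are known to express several IGF binding proteins, and the part of such cells in the levels of the members was not tested. In a bulk library, few cells with much of a transcript and many cells with little of it cannot be told apart.

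**Figure D4:**
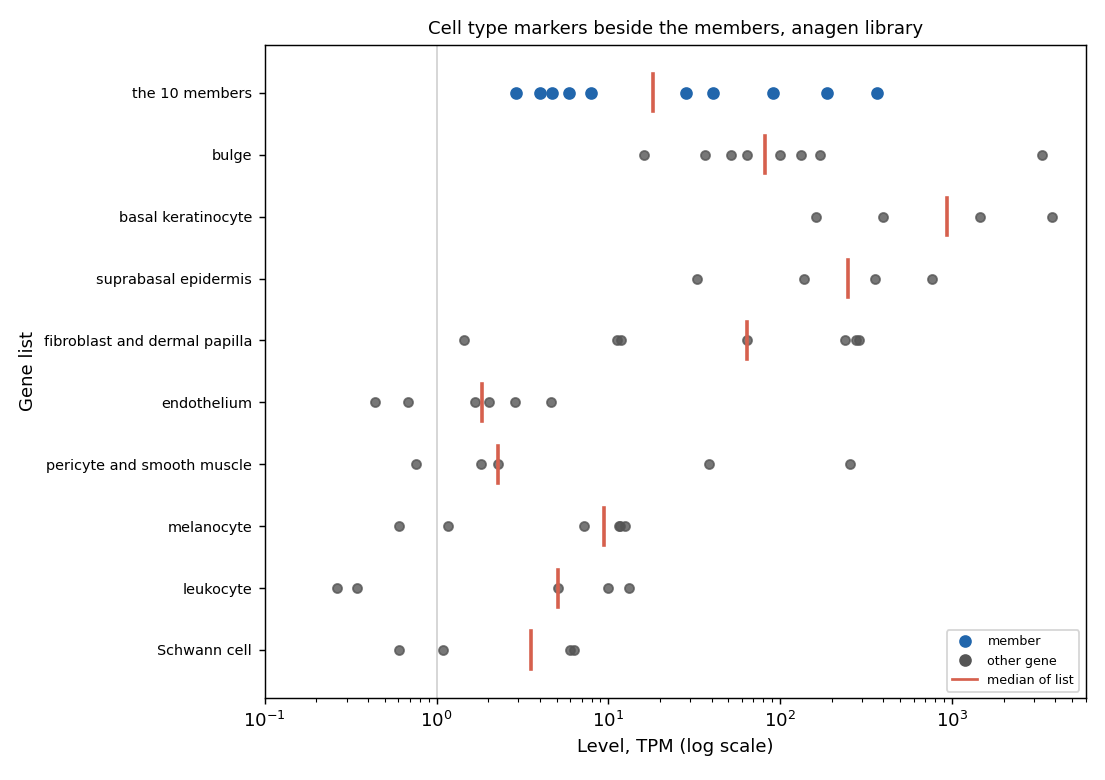
Level in TPM on a log axis of the 10 members (blue, top row) and of the markers of 9 cell types (grey), 1 point a gene, in the anagen library. Red bars are list medians and the grey line marks 1 TPM. The endothelial markers reach 4.65 TPM, under all members but Insr and Irs1, while 3 collagen genes of the fibroblast list lie between 237 and 287 TPM.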

How the data were processed

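Cells were sorted by flow cytometry for high integrin alpha 6 and CD34, without SCA1 and markers of cells from outside the epidermis, and mRNA libraries were read as paired ends, per the labels' protocols. The authors deposited TPM values, per the file headers. Bowtie2 2.2.9, RSEM 1.2.30 and the mm10 build are named in the submitters' processing notes. The sources used here name no annotation and no filter.

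Of 12 columns of per-sample values, the 1 whose header begins with the number of the anagen sample's title was used. The other 11 were not used. None of them could be matched by name to the telogen sample alone. Gene IDs were counted once, and symbols missing from the table came from a table of gene names. Positions and gene types came from RefSeq, GRCm38.p6, matched by symbol. Of several IDs under a symbol the highest was taken. A level's place is the share of nuclear protein-coding genes at 1 TPM or more below it. This calculation was checked on simulated levels.

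The members and gene lists were chosen with earlier results of these data known. Lists of 4 or fewer genes were named in full, and of longer ones the 3 highest and the lowest gene. For cell type markers the highest and the lowest were named. A few genes picked by these rules are not reported here. Python 3.11.15, pandas 2.3.3, numpy 2.4.6 and matplotlib 3.10.9 were used.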

Additional observations from a re-analysis of the deposited data

How the results depend on the processing

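The median level of the 10 members was 18.2 TPM. It was 31.5 TPM when TPM was rescaled over all but the 50 highest and the mitochondrial genes, and 38.0 TPM when it was rescaled over nuclear protein-coding genes. Both rescalings multiply every level by 1 factor, so no ratio or order of the members moved. Summing over gene IDs left every member as it was, since each had 1 ID. The members' median place was 54.8% of protein-coding genes at 1 TPM or more. It was 40.4% among those at 5 TPM or more, 57.0% among genes of any type from 1 TPM up, and 74.7% over protein-coding genes at any level. All 10 members kept their side of the median in the first 2 of these, and 5 did over genes at any level, where all 10 lay above it. At 5 TPM, 7 members remained, and 10 did at 0.5 TPM. The median over the pathway lists was 11.6 TPM, or 15.6 TPM over genes at 1 TPM or more. Of the 93 genes, 67 reached 5 TPM, against 42.4% of protein-coding genes. The ratio of Igfbp4 to Igf1r was 62.0, or 53.1 with 1 TPM added to both levels. No paired analysis was possible because 1 library was used. For the same reason no library could be left out, and unknown depth leaves levels near 1 TPM without a known precision.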

Other observations

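The windows before Irs1 and Irs2 shared the 10-base run GTCACGTGTT, which starts 117 bases before the start site of Irs1 and 46 bases before that of Irs2. It holds the E-box, and 15 of the 32851 promoter windows carried it on the gene's strand. The run was found by comparing all pairs of member windows after the sequences were seen. A shared run of this length was found in 11 of the 36 pairs. The runs of other pairs were in as few as 11 windows (Igfbp4 and Igfbp7) and as many as 439 (Igfbp5 and Igfbp6). Rarity of this order was thus not particular to Irs1 and Irs2. Irs1 stood at 2.92 TPM and Irs2 at 4.71 TPM.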
